A study of Homo sapiens with 12 samples.

Results

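Cohesin is the protein ring that holds sister chromatids together, and this account follows the 10 genes that encode the ring and the proteins that load, release and lock it. They are SMC1A, SMC3 and RAD21 (the ring itself), STAG1 and STAG2 (its alternative outer subunits), NIPBL (the loader), WAPL (the release factor), PDS5A and PDS5B (the accessory subunits on which release and locking both act) and CDCA5 (sororin, which locks the ring in place). The 10 were taken by their names, with no threshold on a measured value but with earlier results of these data known. They are 10 of the 57773 gene identifiers in the deposited table, and all 10 passed the filter on low values together with 23511 genes in all.

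The cells were RPE1, an immortalised line derived from human retinal pigment epithelium, grown in culture and treated with small interfering RNA for 24 h. The siRNA was directed at Anillin (ANLN), a scaffold of the contractile ring that cells need to divide, or was a random control sequence. Living cells were stained with Hoechst 33342, a dye of DNA, and sorted by DNA content, which gave 4 groups of 3 RNA-seq libraries: control siRNA at 2N and at 4N, and Anillin siRNA at 2N and at 4N, below called by siRNA and DNA content. All groups share the line, the transfection reagent (Lipofectamine RNAiMAX), the dye and the sort, and there is no untransfected group. DNA content alone does not separate a cell in G2 or mitosis from a tetraploid cell in G1, so a 4N fraction can hold both. Whether the 3 libraries of a group are separate cultures is not in the labels, and the p-values then reflect only how these samples vary, which may be technical.

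Cohesin is loaded onto DNA by NIPBL and its partner MAU2, and extrudes loops until WAPL and the PDS5 proteins open the ring and let it go. During DNA replication the acetyltransferases ESCO1 and ESCO2 modify SMC3, and sororin then binds PDS5 in place of WAPL, so that the ring stays closed around both sisters until mitosis. Most cohesin leaves the arms in prophase, a fraction at centromeres is guarded by shugoshins, and separase cuts the kleisin RAD21 at anaphase. Outside mitosis cohesin works in loop formation both before and after replication, while sororin is needed only once there are sisters to hold.

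ANLN, the target of the siRNA, was measured at 1.88, 1.25 and 1.67 RPKM in control 2N and at 8.42, 7.45 and 7.98 in control 4N. It lay at 0.0850, 0.0582 and 0.0396 in Anillin 2N and at 0.0989, 0.0855 and 0.0700 in Anillin 4N, so every library labelled Anillin was below every control library. Depth ran from 17412742 to 61760450 recovered reads in a library. Control 2N replicate 2 stood apart from its mates: the chi-square of the reads per degree of freedom was 11.4 and 14.5 against the other control 2N libraries, and 2.38 to 9.66 between all other pairs of replicates. Of the markers of the tissue of origin, KRT18, KRT8, OTX2 and MITF had control 2N means of 161.5, 70.7, 10.7 and 4.53 reads per kilobase of merged exon, scaled to library size. On that scale RPE65, BEST1, RLBP1 and PMEL lay between 0.165 and 0.328, and TYR had at most 2 reads in a library. In RPKM the 9 markers summed to 134.5 to 152.1 RPKM in control 2N, 121.1 to 123.9 in control 4N, 112.6 to 125 in Anillin 2N and 99.6 to 109.1 in Anillin 4N, and their part in the results below was not tested. Most of these sums came from KRT18, whose control 2N mean was 128.9. OTX2 did not follow them: its mean was 4.46 for Anillin 4N against 3.58 for control 2N. Of the 7 markers tested, limma called 2 lower and 0 higher in that comparison. KRT8 and KRT18 overlap on opposite strands, and KRT18 had 98.4% as many reads as KRT8. BEST1, PMEL and TYR are each overlapped on the other strand by a gene with more reads. How far counting mixed these genes was not tested. Among blood genes HBB and CD3E were at 0, PTPRC was at 0.00124 and CD68 at 15.1 RPKM. The sums of the 4, nearly all CD68, were 16.6 to 17.3 in the control groups and 12.6 to 14.7 in the Anillin groups, but CD68 is overlapped on the same strand by a gene with more reads than its own and its value is uncertain. The part of these genes in the results was not tested, and the 7 markers of other epithelia and muscle summed to 0.0530 to 0.112 RPKM.

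RPKM is reads per kilobase of gene, scaled to the reads of the library, and in this table the kilobases are those of the whole genomic span, introns included. The same gene can be compared between libraries on this scale, but a long gene such as STAG2 (462453 bases) is placed far below a short one such as RAD21 (28932 bases). Levels between genes were therefore compared as reads per kilobase of merged exon, scaled to library size like RPKM and computed from the recovered reads. On that scale RAD21 (25.7 ± 1.23, SD, n = 3) and SMC3 (22.2 ± 0.766) were the highest of the 10 in control 2N. WAPL (10.9 ± 0.329), PDS5A (10.3 ± 0.379), STAG2 (10.3 ± 0.190) and SMC1A (8.47 ± 0.447) formed a middle group, in which PDS5A and STAG2 did not differ beyond their spread. STAG1 (7.10 ± 0.161), NIPBL (6.17 ± 0.249) and CDCA5 (4.63 ± 1.25) were lower, and PDS5B (2.26 ± 0.0595) was the lowest. Whether reads in introns were counted is not given in the sources used here, so these are levels of gene reads and not necessarily of mature mRNA.

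Promoter stretches are shown for CDCA5, SMC1A, SMC3 and STAG1, the 4 members with the largest rise from control 2N to control 4N among those with a promoter sequence at hand (values below), around their matches to cell-cycle motifs. RefSeq promoter sequences (build GRCh38.p14) were found for 9 members, 12 promoters in all, and not for RAD21. The 250 bases before each start were searched on both strands for the cell cycle homology region, CHR (TTTGAA or TTCGAA), for an E2F motif (TTTCCCGC, TTTCGCGC, TTTGCCGC or TTTGGCGC) and for the CCAAT box (CCAAT). These spellings were settled after the sequences had been seen. CHR elements are known as docking sites of the MuvB complexes that time late cell-cycle genes, and E2F motifs as sites of the E2F factors. Each stretch is 30 bases long and written 5′ to 3′ on the strand of the gene, with the match in capitals.
CDCA5, chr11:65084059-65084088, minus strand: tccTTTCCCGCagggcgggtaaTTCGAAcg
SMC1A, chrX:53422660-53422689, minus strand: gcttgcactgcggcgTTTCCCGCgcgggct
SMC3, chr10:110567530-110567559, plus strand: tacagaattctagaTTCAAAagaaatccac
STAG1, chr3:136752539-136752568, minus strand: ggccacgTTTCCCGCcccgctggtgcgcgt

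CDCA5 alone among the promoters of these 9 members held both a CHR, at -26 from the start, and an E2F motif, at -45. SMC3 held a CHR at -151, which lies on the other strand and is printed as its complement. E2F motifs stood at -183 in STAG1, at -20 of the second of 2 starts of SMC1A, at -49 in NIPBL and at -51 of the third start of STAG2, a member that limma-trend called in no comparison. In all, 2 of the 12 promoters held a CHR and 5 held an E2F motif, where 14.3% and 2.79% of all 35116 promoters in the table held one. CCAAT boxes were found in 6 of the 12 (of STAG1, STAG2, WAPL, PDS5A and PDS5B), and in 32% of all promoters. A match describes the letters and not a bound site.

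In control cultures 9 of the 10 genes were higher in 4N than in 2N cells and none was lower, where 14.7% of all genes tested were called higher and 11.2% lower (limma, adjusted p under 0.05). The median log2 change of the 10 was 0.34 and that of all genes 0.00. CDCA5 rose most, 3.94-fold, followed by RAD21 at 2.35-fold, SMC1A at 1.71-fold, SMC3 at 1.42-fold and STAG1 at 1.40-fold. PDS5B, WAPL, NIPBL and PDS5A rose by smaller amounts, 1.31-fold, 1.24-fold, 1.19-fold and 1.16-fold, and STAG2 was the gene not called. In a bulk sample, fewer cells of a type and less RNA per cell cannot be told apart. The count was also 9 without control 2N replicate 2.

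**Figure D1:**
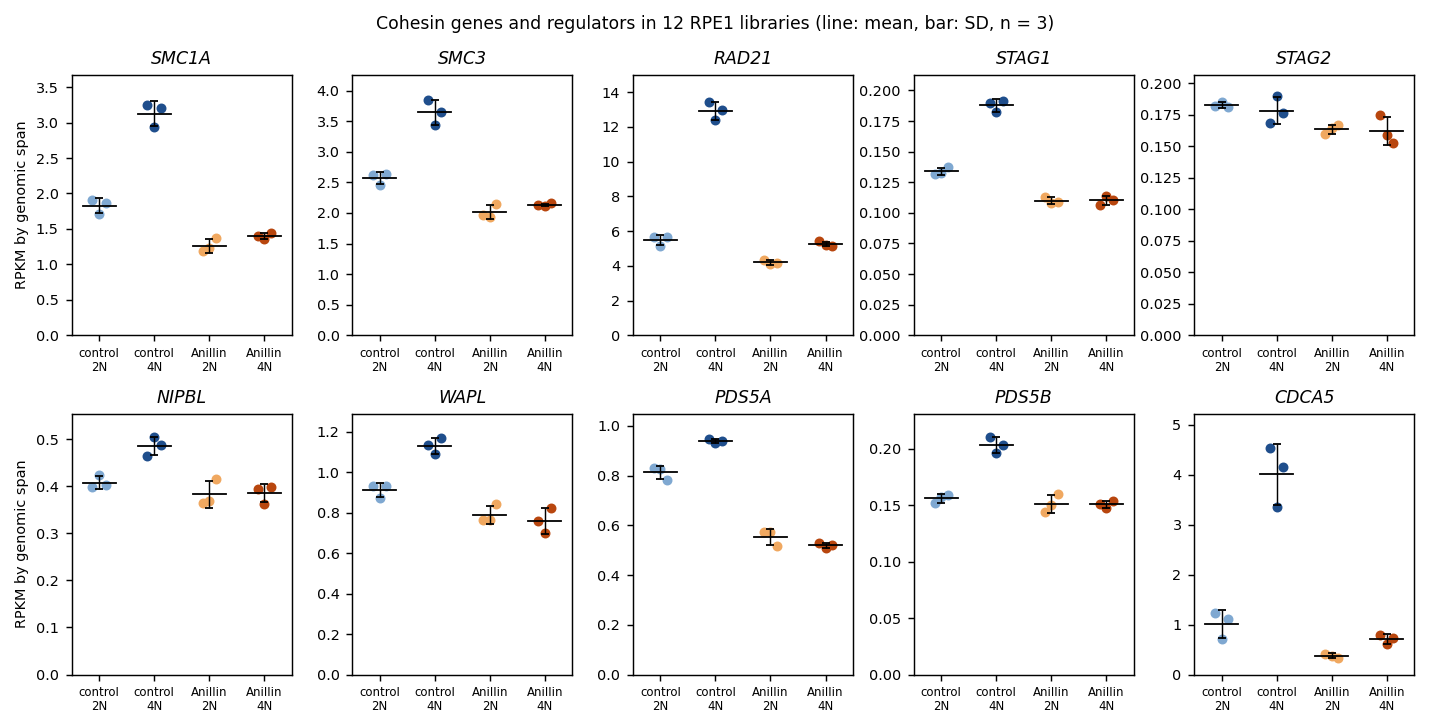
RPKM by genomic span (vertical axes, each from 0 and scaled to its gene) of the 10 cohesin genes in the control and Anillin siRNA groups at 2N and at 4N. Points are libraries, lines group means and bars SD (n = 3); control 4N is the highest group for every gene but STAG2, whose libraries lie between 0.153 and 0.190 in all 4 groups.

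Among 4N cells, 9 of the 10 genes were lower after Anillin siRNA than in the control and none was higher, where 21.1% of all genes were called lower and 16.5% higher. The median of the 10 was -0.66 and that of all genes -0.01. The mean of CDCA5 stood at 0.177 of the control, RAD21 at 0.406, SMC1A at 0.448, PDS5A at 0.553, SMC3 and STAG1 at 0.585 and 0.586, WAPL at 0.672, PDS5B at 0.741 and NIPBL at 0.793. STAG2, at 0.910, was again not called. For all 9 genes every Anillin 4N library was below every control 4N library. The share of all genes that separated in this way is not given here, so this only describes the libraries. The comparison shares the control 4N libraries with the one above, so the 2 patterns are not independent of each other.

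Among 2N cells, 6 of the 10 were lower after Anillin siRNA (SMC1A, SMC3, RAD21, STAG1, PDS5A and CDCA5) and none was higher, where 10.9% of all genes were called lower and 7.52% higher. The median of the 10 was -0.27 and that of all genes -0.02. CDCA5 stood at 0.372 of control 2N, PDS5A at 0.682 and SMC1A at 0.691. Without control 2N replicate 2 the count was 5, because STAG1 was no longer called. STAG1 lost its call whichever of the 6 libraries compared was left out, and the count then ran from 5 to 6.

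Within Anillin siRNA cultures, 1 of the 10 was higher in 4N than in 2N cells, RAD21, where 1.63% of all genes were called higher, and none was lower, where 0.591% were. Set against control 2N, Anillin 4N cells had 5 of the 10 genes lower (SMC1A, SMC3, STAG1, WAPL and PDS5A) and none higher, where 11.1% of all genes were called lower and 9.08% higher. The 4N cells after Anillin siRNA thus had no cohesin gene called above the level of control 2N cells.

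**Figure D2:**
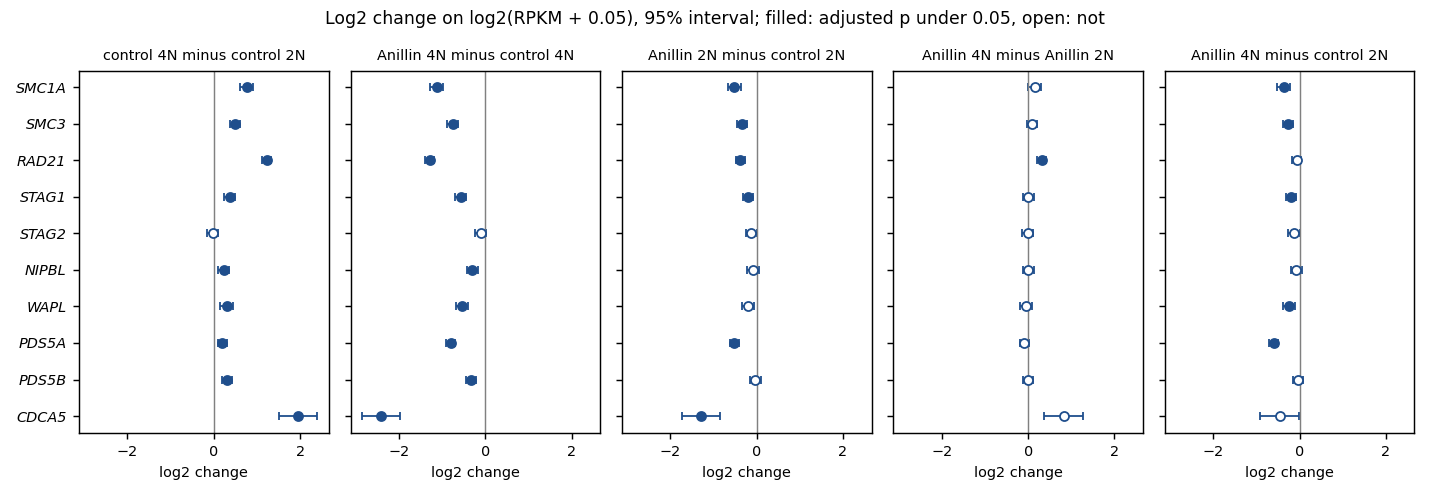
Log2 change on log2(RPKM + 0.05) with its 95% interval (horizontal axes) for the 10 cohesin genes in 5 comparisons; filled points have a limma adjusted p under 0.05 and open points do not. The first panel has 9 filled points to the right of 0, the second 9 to the left, the third 6 to the left, the fourth RAD21 to the right and the fifth 5 to the left.

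SMC1A and SMC3 are the paired coiled-coil ATPases whose heads and hinge close the ring. SMC1A was at 1.91, 1.71 and 1.86 RPKM in control 2N and at 3.25, 2.93 and 3.21 in control 4N. After Anillin siRNA it was at 1.19, 1.22 and 1.38 in 2N and at 1.41, 1.36 and 1.44 in 4N cells. All control 4N libraries were above all others, all Anillin libraries were below control 2N, and the 2 Anillin groups overlapped. The log2 change between Anillin 4N and control 4N was -1.13 ± 0.07 (SE, limma adjusted p = 1.76e-06), that between control 4N and control 2N 0.76 ± 0.07 (adjusted p = 4.95e-05), and that between the 2N groups -0.52 ± 0.07 (adjusted p = 0.000767). Anillin 4N was also below control 2N, by a log2 change of -0.37 ± 0.07 (limma adjusted p = 0.00397).

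SMC3 followed the same order at smaller size. It was at 2.63, 2.45 and 2.64 RPKM in control 2N, at 3.84, 3.43 and 3.66 in control 4N, at 1.97, 1.93 and 2.14 in Anillin 2N and at 2.13, 2.12 and 2.15 in Anillin 4N. The 3 Anillin 4N libraries lay within the range spanned by Anillin 2N, apart from 1 that was just above it. The log2 change between the 4N groups was -0.76 ± 0.05 (limma adjusted p = 5.07e-06) and that between control 4N and control 2N 0.50 ± 0.05 (adjusted p = 0.000173). Over the 12 libraries the log2 values of SMC1A and SMC3, 2 subunits that work as a dimer, had a Pearson r of 0.998, and each was the gene most like the other among 11147 candidates.

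RAD21, the kleisin that bridges the SMC heads and is cut by separase, changed most among the ring genes. It was at 5.67, 5.16 and 5.66 RPKM in control 2N and at 13.4, 12.4 and 12.9 in control 4N. After Anillin siRNA it was at 4.36, 4.09 and 4.18 in 2N and at 5.4, 5.21 and 5.13 in 4N cells. Control 4N was more than 2-fold above every other group, Anillin 2N was the lowest, and Anillin 4N overlapped control 2N. The log2 change was 1.23 ± 0.05 between control 4N and control 2N (limma adjusted p = 3.76e-07) and -1.29 ± 0.05 between the 4N groups (adjusted p = 2.37e-07). Between Anillin 4N and Anillin 2N it was 0.32 ± 0.05 (limma adjusted p = 0.00861), and between Anillin 4N and control 2N -0.06 ± 0.05 (adjusted p = 0.396, 95% interval -0.17 to 0.04). The gene UTP23 overlaps RAD21 on the other strand with 5.13% as many reads, and whether the counting used strand is not given in the sources used here.

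STAG1 and STAG2 are alternative subunits that bind RAD21, of which STAG1 is known for its part at telomeres and STAG2 as the more abundant form in many cell types. STAG1 was at 0.132, 0.133 and 0.138 RPKM in control 2N, at 0.190, 0.182 and 0.192 in control 4N, at 0.113, 0.108 and 0.109 in Anillin 2N and at 0.106, 0.114 and 0.110 in Anillin 4N. Control 4N was above control 2N and both were above the 2 Anillin groups, which overlapped. The log2 change between the 4N groups was -0.57 ± 0.06 (limma adjusted p = 3.98e-05) and that between control 4N and control 2N 0.37 ± 0.06 (adjusted p = 0.00127). The gene is long and its RPKM small, so the added 0.05 understates these changes: on the recovered reads limma-voom gave -0.75 and 0.48. The changes against control 2N were smaller, -0.20 ± 0.06 in both Anillin 2N (limma adjusted p = 0.0327) and Anillin 4N (adjusted p = 0.0318). Both calls were lost when any 1 of the 6 libraries compared was left out, with adjusted p from 0.0553 to 0.103. PCCB overlaps STAG1 on the other strand with 53.9% as many reads, and its part in the values of STAG1 was not tested.

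STAG2 was the member that limma-trend called in none of the comparisons. It was at 0.182, 0.185 and 0.181 RPKM in control 2N, at 0.169, 0.190 and 0.177 in control 4N, at 0.160, 0.164 and 0.166 in Anillin 2N and at 0.175, 0.159 and 0.153 in Anillin 4N. Of the pairs compared, only the 2N groups, and Anillin 4N and control 2N, were free of overlap, with Anillin lower. The log2 change was -0.03 (95% interval -0.16 to 0.10, limma adjusted p = 0.773) between control 4N and control 2N and -0.11 (-0.24 to 0.03, adjusted p = 0.202) between the 4N groups. These intervals leave room for a modest change and do not reach the values of STAG1. With limma-voom on the recovered reads Anillin 4N cells had it below control 2N, by -0.17 (adjusted p = 0.0381), as were 14.0% of the genes tested on reads.

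The ratio of STAG1 to STAG2 within a library removes what the 2 genes share in a library. As a log2 ratio of RPKM it was -0.47, -0.48 and -0.40 in control 2N and 0.17, -0.06 and 0.12 in control 4N. After Anillin siRNA it was -0.50, -0.61 and -0.61 in 2N cells, and -0.72, -0.48 and -0.47 in 4N cells. Control 4N was above all other groups without overlap, by 0.52 over control 2N and by 0.63 over Anillin 4N. The exact two-sided permutation p was 0.1 for both, which is the smallest that 3 libraries against 3 can give. Between the 2 Anillin groups the ratios overlapped (difference 0.02, exact permutation p = 0.8). The ratio is by genomic span, so its level is no ratio of mRNA molecules.

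**Figure D3:**
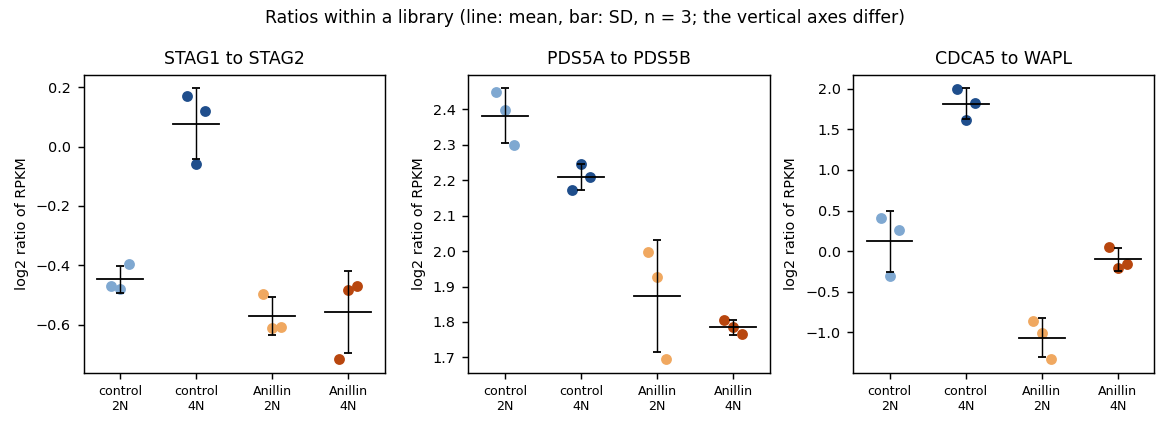
Log2 ratio of RPKM within each library (vertical axes, which differ between panels) for STAG1 to STAG2, PDS5A to PDS5B and CDCA5 to WAPL, in the 4 groups; points are libraries, lines means and bars SD (n = 3). Control 4N is the highest group for STAG1 to STAG2 and for CDCA5 to WAPL, while for PDS5A to PDS5B both Anillin groups lie below both control groups.

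NIPBL, the large loader that also drives loop extrusion, changed little. Its libraries lay between 0.398 and 0.424 RPKM in control 2N and between 0.465 and 0.504 in control 4N. After Anillin siRNA they lay between 0.365 and 0.416 in 2N and between 0.363 and 0.398 in 4N cells. Control 4N stood above the others and the remaining 3 groups overlapped. The log2 change was -0.30 ± 0.06 between the 4N groups (limma adjusted p = 0.00293) and 0.23 ± 0.06 between control 4N and control 2N (adjusted p = 0.0204). The latter call did not survive leaving out control 2N replicate 1 or 3, or control 4N replicate 2 or 3, with adjusted p from 0.0559 to 0.0613. Against control 2N neither Anillin group was called (-0.08 ± 0.06 and -0.07 ± 0.06).

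WAPL opens the ring and takes cohesin off DNA. Its libraries lay between 0.874 and 0.932 RPKM in control 2N and 1.09 and 1.17 in control 4N, without overlap. After Anillin siRNA they lay between 0.764 and 0.843 in 2N and between 0.698 and 0.824 in 4N cells, both below control 2N. The log2 change between the 4N groups was -0.55 ± 0.06 (limma adjusted p = 0.000114) and that between control 4N and control 2N 0.30 ± 0.06 (adjusted p = 0.00806). Between Anillin 4N and control 2N it was -0.25 ± 0.06 (adjusted p = 0.0207), a call that did not survive leaving out 1 of 4 libraries, namely replicates 1 and 3 of control 2N and replicates 1 and 2 of Anillin 4N (from 0.0547 to 0.0695). That call was also lost when only the 2 groups were fitted (limma adjusted p = 0.0799). Between the 2N groups the log2 change was -0.19 ± 0.06 (limma adjusted p = 0.0619). This became a call with limma-voom on the recovered reads (adjusted p = 0.0123, with 15.4% of genes called lower). WAPL was also called lower there without Anillin 2N replicate 3 (limma adjusted p = 0.0456) and with the filter and pseudocount of 0.5 (0.048).

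PDS5A and PDS5B are paralogous scaffolds that serve both release, with WAPL, and locking, with sororin. PDS5A was at 0.829, 0.828 and 0.781 RPKM in control 2N, at 0.949, 0.932 and 0.939 in control 4N, at 0.575, 0.572 and 0.517 in Anillin 2N and at 0.529, 0.508 and 0.522 in Anillin 4N. Every Anillin library was below every control library, at either DNA content. Its log2 change was -0.80 ± 0.05 between the 4N groups (limma adjusted p = 1.51e-06) and -0.51 ± 0.05 between the 2N groups (adjusted p = 0.000126), while control 4N exceeded control 2N by only 0.20 ± 0.05 (adjusted p = 0.0109). PDS5A was the member furthest below control 2N among those called in Anillin 4N cells, at -0.60 ± 0.05 (limma adjusted p = 3.77e-05).

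PDS5B showed another order. Its libraries lay between 0.152 and 0.159 RPKM in control 2N and between 0.197 and 0.210 in control 4N. After Anillin siRNA they lay between 0.144 and 0.160 in 2N and between 0.147 and 0.154 in 4N cells. Control 4N was above the other 3 groups, and these overlapped. The log2 change between the 4N groups was -0.34 ± 0.05 (limma adjusted p = 0.000877) and that between the 2N groups -0.03 ± 0.05 (adjusted p = 0.75, 95% interval -0.15 to 0.09). The log2 ratio of PDS5A to PDS5B within a library was therefore 2.38 ± 0.08 in control 2N, 2.21 ± 0.04 in control 4N, 1.87 ± 0.16 in Anillin 2N and 1.79 ± 0.02 in Anillin 4N (SD, n = 3). The ratio was lower after Anillin siRNA by 0.51 (difference -0.51) at 2N and by 0.42 (difference -0.42) at 4N, without overlap, and each exact permutation p was 0.1, the smallest possible.

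CDCA5 encodes sororin, known as a protein made as replication begins and destroyed after mitosis. CDCA5 was at 1.24, 0.705 and 1.11 RPKM in control 2N and at 4.54, 3.35 and 4.15 in control 4N. After Anillin siRNA it was at 0.421, 0.381 and 0.336 in 2N and at 0.788, 0.606 and 0.740 in 4N cells. Control 4N was above all others, Anillin 2N was below all others, and Anillin 4N overlapped control 2N through control 2N replicate 2. The log2 change was 1.95 ± 0.20 between control 4N and control 2N (limma adjusted p = 0.00013) and -2.41 ± 0.20 between the 4N groups (adjusted p = 1.42e-05). Between the 2N groups it was -1.28 ± 0.20 (limma adjusted p = 0.002).

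Between Anillin 4N and Anillin 2N the mean of CDCA5 was 1.88-fold higher without overlap of the libraries, yet the log2 change of 0.82 ± 0.20 had a limma adjusted p of 0.0746. It became a call with limma-voom on the recovered reads (adjusted p = 0.0156, with 2.68% of genes called higher) and when only these 2 groups were fitted (0.0491). Between Anillin 4N and control 2N the change was -0.46 ± 0.20 (limma adjusted p = 0.141). Without control 2N replicate 2 this was -0.69 with an adjusted p of 0.0134, and limma-voom gave -0.52 with 0.0323. The reads behind CDCA5 ran from 135 to 3236 per library, and no other of the 10 genes had a library with so few.

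The log2 ratio of CDCA5 to WAPL sets the gene of the locking factor against that of the release factor. It was 0.12 ± 0.38 (SD, n = 3) in control 2N, 1.82 ± 0.19 in control 4N, -1.07 ± 0.24 in Anillin 2N and -0.10 ± 0.14 in Anillin 4N. Control 4N was the highest and Anillin 2N the lowest without overlap, and the ratios of Anillin 4N lay inside the range of control 2N. That range rests on control 2N replicate 2, at -0.31. Replicates 1 and 3 of control 2N, at 0.41 and 0.26, were above every Anillin 4N ratio. Without replicate 2 the difference between Anillin 4N and control 2N was -0.44. The exact permutation p was 0.1, the smallest possible, for each pair of groups compared except Anillin 4N and control 2N (0.4, difference -0.22).

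The difference between 4N and 2N cells was itself compared between the siRNAs. It was called smaller after Anillin siRNA for 8 of the 10 genes, all but STAG2 and NIPBL. Of all genes, 5.68% had an interaction called lower and 3.13% one called higher. The interaction was -1.13 ± 0.28 for CDCA5, -0.91 ± 0.07 for RAD21, -0.61 ± 0.09 for SMC1A and -0.41 ± 0.07 for SMC3 (limma adjusted p = 0.0381, 0.00015, 0.00488 and 0.0102). The calls of SMC1A, SMC3 and RAD21 held whichever of the 12 libraries was left out. STAG1 (-0.37 ± 0.08) was no longer called once replicate 1 or 3 of control 4N was left out, and PDS5B (-0.30 ± 0.08) lost it without any 1 library. WAPL (-0.35 ± 0.09), PDS5A (-0.28 ± 0.06) and CDCA5 lost theirs without 10, 7 and 9 of the 12 libraries, with adjusted p up to 0.0945. For STAG2 the interaction was 0.02 (95% interval -0.17 to 0.21). That of NIPBL was not called, but it was negative with any 1 library left out (-0.249 to -0.164).

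**Figure D4:**
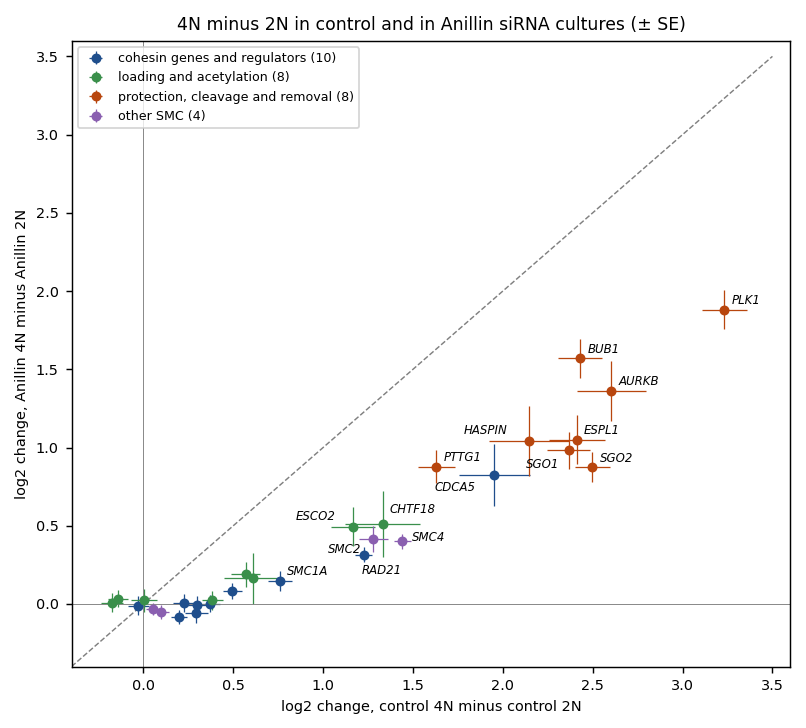
Log2 change between 4N and 2N cells in control cultures (horizontal axis) and in Anillin siRNA cultures (vertical axis) for the 10 cohesin genes and 20 other genes of the pathway, bars ± SE, dashed line equality. Genes with a control change over 0.7 are named, and all of them lie below the line; PLK1 is at 3.23 and 1.88, CDCA5 at 1.95 and 0.82 and RAD21 at 1.23 and 0.32.

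Other genes of the pathway protect, cut or remove cohesin in mitosis. This list held the shugoshins SGO1 and SGO2, separase (ESPL1) and its inhibitor securin (PTTG1), and the kinases PLK1, AURKB, HASPIN and BUB1. In control cells 8 of 8 were higher in 4N than in 2N (median 2.42), where 14.7% of all genes were. Between the 4N groups 8 of 8 were lower after Anillin siRNA (median -2.36), against 21.1% of all genes. Between the 2N groups all 8 were lower after Anillin siRNA (median -1.01), against 10.9% of all genes. PLK1, which drives the release of cohesin from chromosome arms, was at 1.85, 1.21 and 1.70 RPKM in control 2N, at 15.4, 14.3 and 15.7 in control 4N, at 0.802, 0.764 and 0.758 in Anillin 2N and at 2.96, 2.87 and 3.15 in Anillin 4N. Control 4N was far above the rest, and Anillin 4N stood between control 2N and control 4N without overlap.

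Between Anillin 4N and Anillin 2N, where RAD21 was the only cohesin gene called, all 8 of these were called higher with a median of 1.05 (1.63% of all genes were), though HASPIN lost its call when any 1 library was left out. PLK1 alone of the 8 was called above control 2N in Anillin 4N cells (0.91 ± 0.13, limma adjusted p = 0.000986). Without control 2N replicate 2, SGO1 (-0.42, adjusted p = 0.00746) and BUB1 (-0.35, adjusted p = 0.0201) were called below control 2N in that comparison. The shugoshin SGO2 was 6.67-fold higher in control 4N than in control 2N and stood at 0.142 of control 4N in Anillin 4N cells. ESPL1, which cuts RAD21, was 5.76-fold higher in control 4N than in control 2N and stood at 0.178 of control 4N in Anillin 4N cells. Control 2N replicate 2 was the lowest control 2N library for all 8 genes and for 5 of the 10 cohesin genes (SMC1A, SMC3, RAD21, WAPL and CDCA5). Without it 8 of 8 were still higher in control 4N than in control 2N and 8 of 8 lower after Anillin siRNA at 2N. Set against control 2N, none of the 8 was called lower in Anillin 4N cells with limma-trend or limma-voom (median 0.01). In that comparison limma-trend called 5 of the 10 cohesin genes lower, and 3 to 5 with 1 library left out, while limma-voom called 7. Of all genes, limma-trend called 11.1% lower and limma-voom 14.0%. A call also depends on the spread of each gene, so these counts do not compare sizes of change. The part of the mitotic genes in the results for the cohesin genes was not tested.

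The list of loading and acetylation held MAU2, ESCO1, ESCO2, the deacetylase HDAC8, the subunits DSCC1, CHTF8 and CHTF18 of the clamp loader that aids cohesion, and the helicase DDX11. Between the 4N groups 5 of these 8 were lower and 1 higher after Anillin siRNA (median -0.61), where 21.1% and 16.5% of all genes were. In control cells 5 were higher in 4N than in 2N and none was lower (median 0.48), where 14.7% and 11.2% of all genes were. With limma-voom on the recovered reads, which called 17.5% of genes lower in that comparison, MAU2 (-0.15, adjusted p = 0.0452) and ESCO1 (-0.19, adjusted p = 0.0399) were called lower. ESCO1 was also lower there without control 4N replicate 2 (-0.23, adjusted p = 0.0264), and MAU2 with quantile scaling (-0.19, adjusted p = 0.028). The higher call of DSCC1 was lost without control 4N replicate 1 (adjusted p = 0.0835) and when only the 2 groups were fitted (0.0928). ESCO2, the acetyltransferase tied to replication, stood at 0.225 of control 4N in Anillin 4N cells (-1.81 ± 0.12, limma adjusted p = 4.8e-06). ESCO1, which acts throughout the cycle, was not called between the 4N groups (0.17 ± 0.06, adjusted p = 0.0579), but was higher without control 4N replicate 2 (0.22, adjusted p = 0.0209) and with limma-voom (0.19, adjusted p = 0.0485, with 21.9% of genes called higher). MAU2, the partner of NIPBL, was the gene that was higher, at 0.23 ± 0.06 (adjusted p = 0.00818), so the 2 genes of the loader were called in opposite directions. HDAC8 was not called in any of these comparisons. DDX11 has near-identical copies. ESCO2, CHTF18, MAU2, CHTF8, SGO2, HASPIN, SMC4 and SMC6 are each overlapped on the other strand by a gene with at least 37.1% as many reads. PBK and CCDC25 had 429% and 409% as many reads as ESCO2, and ITGAE had 664% as many as HASPIN. The values of all these genes, and of DDX11, are uncertain in so far as counting could mix them, which was not tested.

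CTCF, the DNA-binding protein at which extruding cohesin stops, was lower after Anillin siRNA at 4N (-0.37 ± 0.04, limma adjusted p = 0.000153) and higher in control 4N than in control 2N (0.41 ± 0.04, adjusted p = 0.000212). Among the other SMC proteins, the condensin ATPases SMC2 and SMC4 stood at 0.266 and 0.358 of control 4N in Anillin 4N cells. SMC5 and SMC6, the pair of another SMC complex, stood at 0.831 (called lower) and 0.976 (not called). Of the meiotic cohesin genes, SMC1B gave 1 read in each of 2 libraries and 0 in the other 10 and was not tested. STAG3, REC8 and RAD21L1 were tested, and each of these 3 is overlapped by a gene with more reads than its own. Of them STAG3 was called lower between the 4N groups, at 0.659 of the control. REC8 was not called there by limma-trend, but was called higher with limma-voom (0.20, adjusted p = 0.0396), quantile scaling (0.32, 0.0191), the filter and pseudocount of 0.5 (0.18, 0.039) and without control 4N replicate 2 (0.27, 0.0178).

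Likeness between genes over the 12 libraries, as Pearson r of log2(RPKM + 0.05), is given as a description without a test. CDCA5 was most like EXOSC8 and H2AZ1 (both Pearson r = 0.996), RAD21 most like RBMX and ECT2 (0.998 and 0.997), and STAG1 most like SUZ12 and VPS26A (both 0.994). PDS5A was closest to AIDA and AGPS (both 0.994), PDS5B to VANGL1 and QSER1 (0.992 and 0.989), WAPL to TNPO1 and SRP72 (0.989 and 0.985) and NIPBL to PRNP and MARCHF7 (0.965 and 0.958). The genes most like STAG2 were MANEA and TMF1, at 0.949 and 0.917, and its r with the other 9 members ran from 0.380 (PDS5B) to 0.738 (PDS5A). After SMC1A, SMC3 was closest to the readthrough gene ZFP91-CNTF (0.996), whose reads may be those of ZFP91. The points share libraries, depth and the 4 groups, and RBMX and H2AZ1 have near-identical copies.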

How the data were processed

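RNA-seq was done on 12 libraries of sorted RPE1 cells, 3 per group. The authors deposited one table of RPKM values; the submitters' processing notes list CASAVA 1.8.2, TopHat2 and edgeR and, as build, hg19, and give no step to any. Which annotation and counter were used, and whether by strand, is not given in the sources used here, and the labels name both a stranded mRNA kit and ribo-depletion. Of 38571 genes above 0, 29239 had values that were whole numbers of reads, within 0.01 read, per GENCODE 29 span (coordinates on GRCh38) and library total, with a further scaling of 0.951 to 1.04. For the other 9332 the smallest whole reads that fitted all libraries at 1 shared length were taken, among them for SMC1A (48608 bases instead of 48580) and STAG1 (416144 instead of 416171). Genes that reached 0.05 RPKM in 3 or more of the 12 libraries were tested with limma-trend (limma 3.58.1, R 4.3.3) on log2(RPKM + 0.05), 1 mean per group, two-sided, Benjamini-Hochberg over all 23511 genes, threshold 0.05. This scale understates changes of low genes. A filter of 0.5 would have left out STAG1, STAG2, NIPBL and PDS5B. Alternatives were other pseudocounts (0.5, 0.01) and filters, quantile and median-of-ratios scaling, limma-voom on recovered reads (at least 10 in at least 3 libraries, 22404 genes), fitting only the 2 groups, and leaving out each library. No replicate pair agreed within sampling noise. Scripts were tested on simulated data and used Python 3.11.15, numpy 2.4.6, pandas 2.3.3, scipy 1.17.1 and matplotlib 3.10.9. The genes named are the 10 members, the pathway lists, and for each member the 2 tested genes most like it among those with a symbol and a mean RPKM of at least 0.5. The members, lists, filter and pseudocount were chosen with earlier results of these data known.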

Additional observations from a re-analysis of the deposited data

Results flagged for a closer look

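For the genes here the difference between 4N and 2N cells depended on the siRNA, by the limma interaction term at an adjusted p under 0.05. Among the cohesin genes the log2 interaction was -1.13 for CDCA5, -0.91 for RAD21, -0.61 for SMC1A, -0.41 for SMC3, -0.37 for STAG1, -0.35 for WAPL, -0.30 for PDS5B and -0.28 for PDS5A. Among the genes of cohesin protection, cleavage and removal it was -1.62 for SGO2, -1.38 for SGO1, -1.36 for ESPL1, -1.35 for PLK1, -1.24 for AURKB, -0.86 for BUB1 and -0.75 for PTTG1. It was -1.04 for SMC4, -0.86 for SMC2, -0.67 for ESCO2, -0.36 for CHTF8 and -0.29 for CTCF. For ANLN, the siRNA target, it was -2.0. All of these are negative, which means a smaller excess of 4N over 2N after Anillin siRNA than in the control. Several of these calls did not hold when each of the 12 libraries was left out in turn. PDS5B kept its call in 0 of the 12 fits, WAPL in 2, CDCA5 and ESCO2 in 3, and PDS5A and CHTF8 in 5. AURKB kept it in 6, CTCF in 7 and STAG1 in 10. ESCO2 was also not called with a pseudocount of 0.01, no filter, quantile scaling or limma-voom.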

How the results depend on the processing

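Over 866 values of the 10 cohesin genes under the alternatives, 787 kept their side of the threshold, 71 were no longer called, 8 became called and 0 calls reversed. Values that were not called could change sign and still count as kept. The log2 change of STAG2 between control 4N and control 2N, for example, ran from -0.0642 to 0.0015 with 1 library left out. In Anillin 4N against Anillin 2N cells 2 members were called higher instead of 1 with limma-voom and when only the 2 groups were fitted. In Anillin 4N against control 2N cells 3 members were called lower instead of 5 when only the 2 groups were fitted. With limma-voom it was 7 (14.0% of all genes were called lower), and 3 to 5 when 1 library was left out. Between the 2N groups limma-voom called 7 members lower instead of 6 (15.4% of all genes). The interaction was called lower for 5 members instead of 8 without a filter, and for 3 to 7 when 1 library was left out; 6 remained without control 2N replicate 2. The log2 ratio of STAG1 to STAG2 between the 2 Anillin groups, 0.02, was -0.0213 without Anillin 4N replicate 2 and -0.0280 without replicate 3, and -0.0041 and -0.0025 without Anillin 2N replicates 2 and 3 (-0.0280 to 0.0950 over all libraries left out in turn). Over all genes, Anillin 4N against control 4N had 2582 called higher with the filter of 0.5 instead of 3876 (3111 to 3677 with 1 library left out). Control 4N against control 2N had 1703 called lower with that filter and 1574 with 2 groups instead of 2634 (1536 to 2527 with 1 library left out). Anillin 2N against control 2N had 2971 called higher with limma-voom, 1012 higher and 1489 lower with 2 groups, and 2350 higher and 2259 lower with quantile scaling, instead of 1768 and 2557 (1150 to 1663 higher with 1 library left out). Anillin 4N against control 2N had 1375 higher and 1598 lower with 2 groups instead of 2135 and 2613. Anillin 4N against Anillin 2N had 601 higher and 316 lower with limma-voom and 369 higher and 222 lower with quantile scaling instead of 383 and 139 (214 to 269 higher and 59 to 144 lower with 1 library left out). The interaction was higher for 1470 genes with limma-voom instead of 735 (394 to 795 with 1 library left out, and 804 to 1263 lower instead of 1336). The cause of these shifts was not tested. No paired analysis was possible because the sample numbers in the labels are not shared between groups. With 3 libraries a group an exact permutation p cannot go below 0.1.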
